A study of Mus musculus with 100 samples.

Results

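Plagl1, Grb10, Ddc, Impact, Gnas and Zdbf2 are imprinted genes that lie on 5 mouse chromosomes, and most of them act on growth, nutrient sensing or hormone signalling. These 6 genes were taken by name from an RNA-seq table of 25965 genes, and all 6 were present in it and had reads in all 18 libraries. In female mouse embryonic fibroblasts (MEFs) Plagl1, Impact and Zdbf2 were read almost wholly from the paternal allele and Grb10 almost wholly from the maternal allele. In induced pluripotent stem cells (iPSCs) and embryonic stem cells (ESCs) the silent allele of Plagl1, Impact and Zdbf2 was read as well, and the maternal share of Grb10 fell in 4 of the 5 pluripotent groups, with M KSR5 past the threshold only on a log2 ratio of the alleles. The level of the genes moved apart: Grb10 and Gnas fell, Ddc and Zdbf2 rose, and no change in Impact was found. Plagl1 fell in the mean of the pluripotent groups, with the iPSC lines below MEFs and the ESCs above them.

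The cells were 6 groups with 3 replicate libraries each. The female MEFs came from 1 mid-gestation embryo of a cross between a female i4F-BL6 mouse (C57BL/6J background, BL6) and a male CAST/EiJ mouse (CAST). Their genome carries a doxycycline-inducible cassette of the 4 Yamanaka factors together with the rtTA activator in the Rosa26 locus. F KSR2 and F KSR4 are female and M KSR3 and M KSR5 male iPSC lines made from such MEFs in a serum-free medium with Knockout Serum Replacement (KSR) and LIF, and carry the same transgenes. Each line grew from 1 picked colony, was first plated on feeder cells without doxycycline, and was collected at about day 50. The lines of a sex came from the same embryo, so that sex and embryo cannot be told apart, and male MEFs were not analysed here. TX 2i ESCs are the female TX1072 line, from a BL6 mother and a CAST father, kept with LIF and the 2i inhibitors of MEK and GSK3. In every group the BL6 allele was therefore maternal and the CAST allele paternal, so that parent of origin and strain of the allele cannot be told apart either.

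Imprinted genes are expressed from 1 parental allele only, as set by DNA methylation laid down in the egg or the sperm at control regions. Maternal methylation is carried by the control regions of Plagl1, Grb10, Impact and Gnas. Zdbf2 is switched on in the early embryo from an upstream start that is active on the paternal allele. After fertilisation such methylation is kept by factors that include ZFP57, a zinc finger protein that binds the letters TGCCGC when their CpG is methylated. Plagl1 (also Zac1) encodes a zinc finger transcription factor that slows proliferation and acts on other imprinted genes. Grb10 encodes an adaptor that binds and dampens the insulin and IGF receptors, and Ddc, its neighbour, encodes dopa decarboxylase, which makes dopamine and serotonin. Impact encodes an inhibitor of the kinase GCN2, which senses amino acid shortage. Gnas is a complex locus that encodes the stimulatory G protein subunit Gs alpha from both alleles in most tissues, and also the maternal transcript Nesp and the paternal transcripts XLas and exon 1A. Zdbf2 encodes a large zinc finger protein that affects growth after birth.

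On the mouse build GRCm38 the genes stand as follows. Zdbf2 (ENSMUSG00000027520) spans chr1:63273265-63314576 on the plus strand. Gnas (ENSMUSG00000027523) spans chr2:174284320-174346744, plus strand. Plagl1 (ENSMUSG00000019817) spans chr10:13090691-13131694, plus strand. Ddc (ENSMUSG00000020182) spans chr11:11814101-11898144 and Grb10 (ENSMUSG00000020176) chr11:11930508-12038683, both on the minus strand. Reads were counted on the exons of the whole locus, so that the transcripts of Gnas, or those of Grb10, were summed, and the exons next to the upstream start of Zdbf2 were not counted.

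The start regions of the genes whose allelic use changed most are shown. Imprinted control regions are rich in CpG and hold the ZFP57 letters, but the windows shown need not be the control regions. Each run is the 250 bases before a RefSeq transcript start (GRCm38.p6), 5′ to 3′ on the strand of the gene, with TGCCGC or its reverse complement GCGGCA in capitals. The windows are chr10:13090582-13090831 (plus) for Plagl1, chr1:63200108-63200357 (plus) for the upstream and chr1:63273019-63273268 (plus) for the main start of Zdbf2, and chr11:12037421-12037670 (minus) for the upstream start of Grb10.
Plagl1: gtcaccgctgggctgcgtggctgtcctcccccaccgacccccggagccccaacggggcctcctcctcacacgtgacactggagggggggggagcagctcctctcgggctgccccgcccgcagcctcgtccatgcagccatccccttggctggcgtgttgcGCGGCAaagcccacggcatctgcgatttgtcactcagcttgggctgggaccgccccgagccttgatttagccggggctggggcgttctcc
Zdbf2 upstream start: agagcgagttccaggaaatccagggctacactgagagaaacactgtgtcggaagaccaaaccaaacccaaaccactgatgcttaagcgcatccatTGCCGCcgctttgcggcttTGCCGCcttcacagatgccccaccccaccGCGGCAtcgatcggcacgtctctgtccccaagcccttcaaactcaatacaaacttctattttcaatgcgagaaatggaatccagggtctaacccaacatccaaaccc
Zdbf2 main start: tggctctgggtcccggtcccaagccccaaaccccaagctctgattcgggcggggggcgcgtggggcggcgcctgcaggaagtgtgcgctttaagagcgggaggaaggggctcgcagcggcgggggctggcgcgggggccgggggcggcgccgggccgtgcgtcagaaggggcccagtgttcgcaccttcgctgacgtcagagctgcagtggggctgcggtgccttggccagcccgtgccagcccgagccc
Grb10 upstream start: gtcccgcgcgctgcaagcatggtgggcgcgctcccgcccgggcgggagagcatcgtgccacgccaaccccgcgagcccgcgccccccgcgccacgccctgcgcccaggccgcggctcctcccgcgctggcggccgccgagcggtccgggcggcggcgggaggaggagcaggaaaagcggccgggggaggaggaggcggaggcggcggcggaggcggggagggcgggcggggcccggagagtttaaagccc
The Plagl1 window held 19 CpG and 1 copy of the letters, on the reverse strand, and the upstream window of Zdbf2 held 13 CpG and 3 copies, of which 2 were on the forward strand. The main window of Zdbf2 and the upstream window of Grb10 held 26 and 40 CpG and no copy. Of 32851 RefSeq promoter windows of this length 8.68% held at least 1 copy and 0.0731% held 3 or more, and the median window had 6 CpG. Of the 11 windows read for 5 of the genes, the 4 of Gnas (14 to 29 CpG) and the 2 of Ddc (1 and 4 CpG) held no copy, and neither did the other window of Grb10. A match of letters describes the sequence and shows no binding, and a missing copy in these windows does not describe the control regions. DNA methylation was not analysed here.

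The libraries held 13183036 to 17921280 reads on genes, of which 17.7 to 19.9% overlapped a SNP that told the alleles apart. Summed RPM (reads on a gene divided by the reads on all genes and scaled to a common total) of 15 fibroblast markers, such as collagens, was 32112 to 43941 in MEFs and 24.1 to 98.2 in 14 of the 15 pluripotent libraries. The third library of M KSR5 stood apart with 266, and for the 6 genes the calls of M KSR5 against MEFs or M KSR3 are given also without it, whereas the genes of the pathway lists were not refitted without it. Summed RPM of 10 pluripotency markers, such as Pou5f1 and Nanog, was 4125 to 8720 in pluripotent libraries and 1.95 to 2.63 in MEFs, where 4 of the 10 had no read. In M KSR3 the median maternal share of the genes of chromosome 1 was 67.7 to 68.3% and that of chromosome 11 was 63.9 to 64.2%, whereas both stood between 50.9 and 53.9% in the other groups. Zdbf2 lies on the former and Grb10 and Ddc on the latter.

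Levels are given as RPM without correction for gene length, so that they compare libraries but not genes. The allelic measure is the maternal share, the percentage of BL6 reads among the BL6 and CAST reads of a gene. Differences were tested with limma across all genes on the log2 RPM or on the share, with Benjamini-Hochberg adjusted p-values and a threshold of 0.05. In bulk RNA, fewer cells of a kind and less RNA per cell cannot be told apart.

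Compared with MEFs, 5 of the 6 genes differed in level in the mean of the 5 pluripotent groups, 2 being higher and 3 lower. Over all genes 74.6% differed in this comparison, so that a change in level was the common case. The median difference of the 6 genes was -1.14 on the log2 scale against 0.21 for all genes tested. The maternal share of 4 of the 5 genes that could be tested differed from MEFs in each pluripotent group. The share of all genes past the same threshold was 17.3% for F KSR2, 13.2% for F KSR4, 22.0% for M KSR3, 12.6% for M KSR5 and 20.1% for TX 2i ESCs. These comparisons share the 3 MEF libraries and are not independent of each other.

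**Figure D1:**
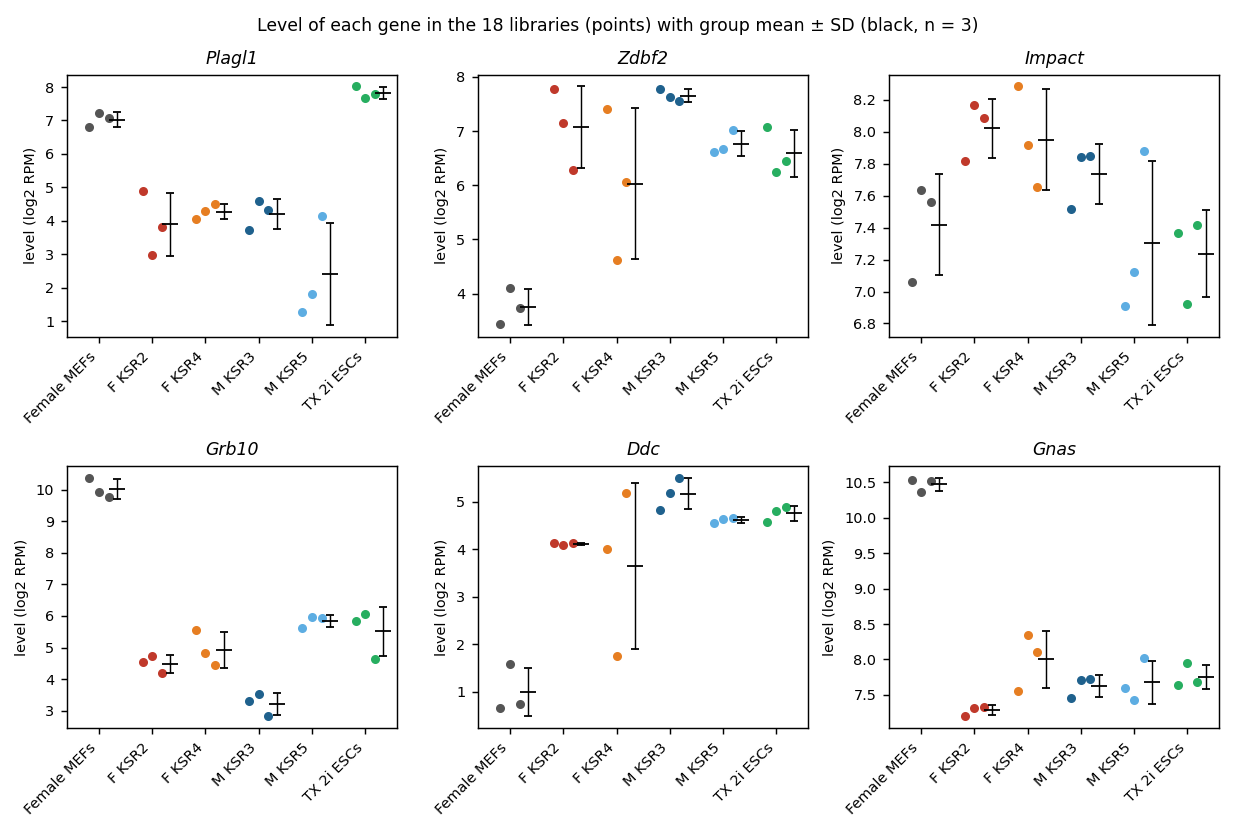
Level of the 6 genes, 1 panel per gene, with log2 RPM on the vertical axis and the 6 groups along the horizontal axis. Points are single libraries and black marks the group mean ± SD (n = 3). Grb10 and Gnas lie lower in all 15 pluripotent libraries than in MEFs, Ddc and Zdbf2 lie higher in all 15, and Plagl1 is highest in TX 2i ESCs.

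Plagl1 changed from mostly paternal reads in MEFs to mostly maternal reads in every pluripotent group. MEFs held 111, 149 and 134 RPM of Plagl1, and only 8, 2 and 6 of their 528, 852 and 836 allelic reads were maternal. F KSR2 held 29.4, 7.88 and 14.2 RPM, F KSR4 16.5, 19.5 and 22.6 RPM, M KSR3 13.1, 24.2 and 19.9 RPM and M KSR5 2.43, 3.53 and 17.8 RPM. TX 2i ESCs held 259, 205 and 219 RPM. The 12 KSR-iPSC libraries were thus all below, and the 3 TX 2i ESC libraries all above, the MEF libraries. In the order of levels TX 2i ESCs and MEFs did not overlap with the next group, whereas the 4 KSR-iPSC lines overlapped from each to the next.

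The mean Plagl1 level of the 5 pluripotent groups differed from that of MEFs by -2.50 on the log2 scale (SE 0.42, limma adjusted p = 3.80e-05), a 5.66-fold fall. This mean hides groups on either side of MEFs, and the exact two-sided permutation test of 15 against 3 libraries gave p = 0.0490. The maternal share of Plagl1 was 0.823% ± 0.647 (SD, n = 3) in MEFs. F KSR2 reached 89.7% ± 1.93, F KSR4 81.7% ± 8.26, M KSR3 79.4% ± 1.62, M KSR5 71.9% ± 8.58 and TX 2i ESCs 68.4% ± 0.839. Every pluripotent library was above every MEF library, and the differences from MEFs ran from 67.6 to 88.9 percentage points (limma adjusted p from 2.32e-11 to 4.59e-09), that of M KSR5 being 73.4 without the library with the highest fibroblast markers. The exact permutation test over libraries gave p = 0.00245, the smallest that 15 against 3 allows.

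Both alleles of Plagl1 differed between the groups. Its paternal reads stood at 43.2 RPM in MEFs, at 0.636 and 1.65 RPM in F KSR2 and F KSR4, at 1.32 and 0.966 RPM in M KSR3 and M KSR5, and at 24.6 RPM in TX 2i ESCs. Maternal reads stood at 0.329 RPM in MEFs, 5.06, 6.80, 5.10 and 2.08 RPM in the 4 lines in the same order, and 53.4 RPM in TX 2i ESCs. Thus in the KSR-iPSC lines the paternal allele, the active one in fibroblasts, was read at a low level and less than the maternal one. In TX 2i ESCs both were read well. These allelic levels are group means and were not tested on their own.

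**Figure D2:**
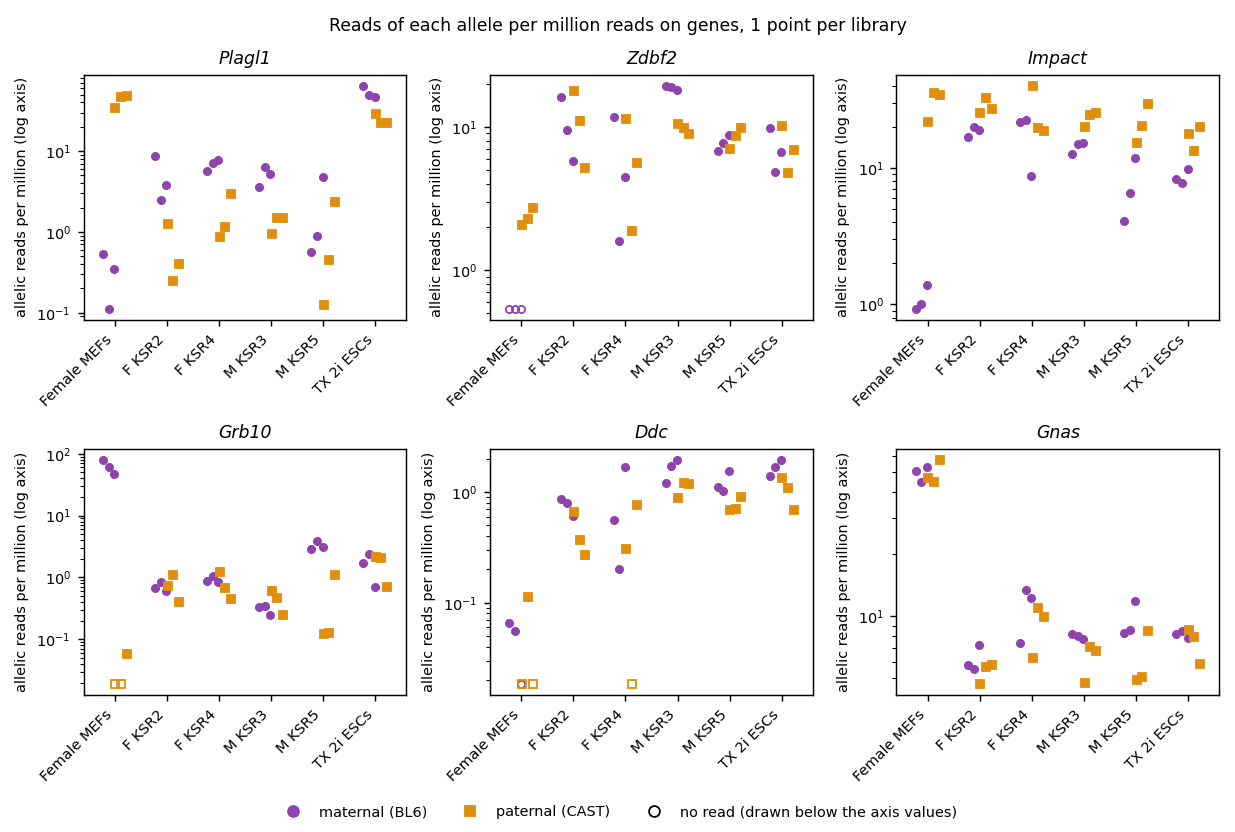
Reads of the maternal BL6 allele (circles) and the paternal CAST allele (squares) in RPM, on a log axis, with 1 panel per gene and 1 point per library. Open symbols mark libraries without a read. Plagl1 changes from paternal in MEFs to mostly maternal, Impact and Zdbf2 gain maternal reads, and Grb10 loses maternal reads.

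Zdbf2 rose in level and gained the maternal allele. Its level was 10.8, 17.2 and 13.4 RPM in MEFs, and 220, 143 and 78.0 RPM in F KSR2. F KSR4 was uneven, with 169, 24.6 and 67.0 RPM, and M KSR3 even, with 220, 198 and 187 RPM. M KSR5 held 97.7, 102 and 130 RPM and TX 2i ESCs 135, 75.7 and 87.6 RPM. All 15 pluripotent libraries were above all MEF libraries, and the 5 pluripotent groups overlapped from each to the next. The difference was 3.06 on the log2 scale (SE 0.37, limma adjusted p = 9.60e-07), 8.37-fold higher.

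In MEFs 0 of 31, 0 of 41 and 0 of 47 allelic reads of Zdbf2 were maternal, which allows a maternal share of up to 9.68, 7.32 and 6.38% (3 reads of the total, counting error only). F KSR2 had a mean share of 49.1% ± 3.46, F KSR4 of 47.2% ± 3.40, M KSR5 of 47.9% ± 1.09 and TX 2i ESCs of 49.5% ± 0.715, close to equal use of the alleles. M KSR3 had 65.9% ± 1.02, and there the median gene of chromosome 1 stood near the same share. The differences from MEFs were 47.2 to 65.9 points (limma adjusted p from 1.35e-12 to 5.61e-10), that of M KSR5 being 48.1 without the same library. Relative to the median of chromosome 1, a comparison added after the shares of M KSR3 were seen, the difference of M KSR3 from MEFs was 49.8 points. The paternal reads of Zdbf2 stood at 2.35 RPM in MEFs and at group means of 6.25 to 11.3 RPM in pluripotent cells, beside 5.92 to 18.8 maternal RPM.

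Impact (ENSMUSG00000024423), which spans chr18:12972252-12992948 on the plus strand of GRCm38, changed its alleles with no change of level past the threshold. MEFs held 133, 199 and 189 RPM. F KSR2 held 225, 287 and 272 RPM, F KSR4 312, 241 and 202 RPM and M KSR3 183, 230 and 231 RPM. M KSR5 held 120, 139 and 236 RPM and TX 2i ESCs 165, 121 and 171 RPM. Of the 15 pluripotent libraries 9 were above all MEF libraries and 2 below, and every group overlapped with the next in the order of levels. The difference from MEFs was 0.23 on the log2 scale (SE 0.19, 95% interval -0.16 to 0.62, limma adjusted p = 0.271).

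The maternal share of Impact was 3.59% ± 0.705 (SD, n = 3) in MEFs, with 343 to 648 allelic reads per library. F KSR2 reached 39.7% ± 1.74, F KSR4 40.04% ± 11.4, M KSR3 38.2% ± 0.648, M KSR5 24.8% ± 3.67 and TX 2i ESCs 33.98% ± 2.57. Each was above MEFs in all libraries, by 21.2 to 36.5 points (limma adjusted p from 1.20e-06 to 0.000722), the least being that of M KSR5, which was 19.3 points without that same library (adjusted p = 0.00536). In F KSR4 the second library, with 332 maternal and 294 paternal reads, stood at 53.0% beside 35.3 and 31.8% in the others. Maternal Impact reads stood at 1.10 RPM in MEFs and at 7.48 to 18.5 RPM in the pluripotent groups, whereas the paternal reads were 30.3 RPM in MEFs and 16.9 to 28.3 RPM in the others. The paternal allele thus stayed the more active one in the mean of every group.

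**Figure D3:**
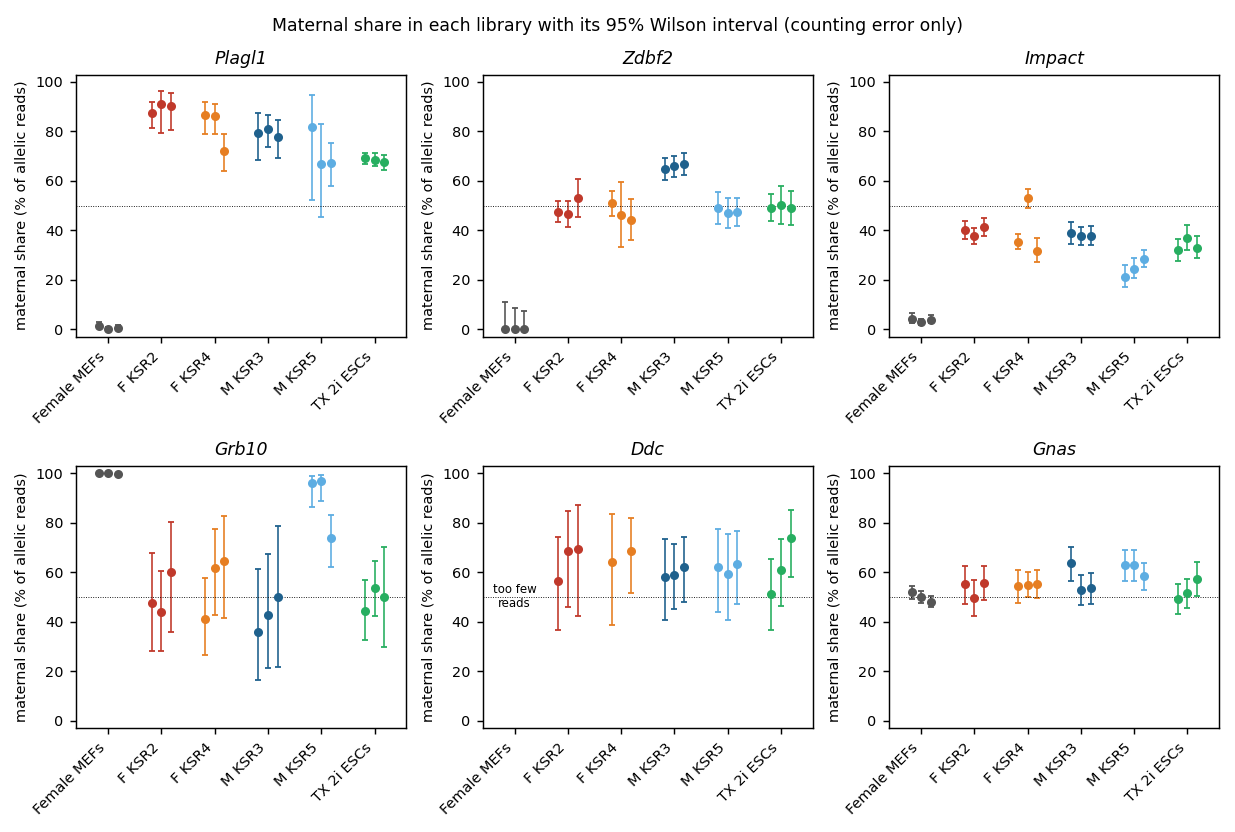
Maternal share of each gene in percent of its allelic reads, 1 panel per gene, 1 point per library, with bars for the 95% Wilson interval (counting error only) and a dotted line at 50%. In MEFs Plagl1, Impact and Zdbf2 lie near 0 and Grb10 near 100%. In the pluripotent groups the points of all 6 genes lie between, and in M KSR5 Grb10 has 2 libraries above 95% and 1 at 73.8%.

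Grb10 fell most in level. MEFs held 1326, 978 and 871 RPM, and 3105 of 3106 allelic reads were maternal. F KSR2 held 23.1, 26.8 and 18.1 RPM, F KSR4 46.8, 28.2 and 21.6 RPM and M KSR3 10.0, 11.4 and 7.11 RPM. M KSR5 held 49.4, 62.3 and 61.0 RPM and TX 2i ESCs 57.4, 66.8 and 24.9 RPM. All 15 were below all MEF libraries, and the level fell by 5.23 on the log2 scale (SE 0.26, limma adjusted p = 7.01e-12), 37.4-fold. M KSR3 was lowest and did not overlap with F KSR2, the next in order.

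The fall left few allelic reads of Grb10, 8 to 73 per library in the pluripotent groups. F KSR2 had a mean maternal share of 50.5% ± 8.49, F KSR4 of 55.8% ± 12.8, M KSR3 of 42.9% ± 7.14 and TX 2i ESCs of 49.2% ± 4.63. These differed from MEFs by -44.2 to -57.1 points (limma adjusted p from 4.15e-06 to 0.000275). M KSR3 stood at about equal use, and the median gene of chromosome 11 stood at 64.0% there. Of the 2 neighbours of Grb10 with enough allelic reads, Fignl1 stood at 53.0% in M KSR3 and 51.6% in MEFs. Cobl stood at 68.5 and 60.6%. In the other KSR-iPSC lines Fignl1 stood at 55.0 to 56.8% and Cobl at 66.0 to 68.8%. Neither neighbour differed between M KSR3 and MEFs by limma (adjusted p = 0.784 and 0.0941). In M KSR5 the 3 libraries had 47 maternal and 2 paternal, 60 and 2, and 48 and 17 reads, shares of 95.9, 96.8 and 73.8%. The difference of M KSR5 from MEFs was -11.1 points (SE 6.53, 95% interval -24.9 to 2.71, limma adjusted p = 0.335), and -3.61 without the third library, in which the fibroblast markers were also highest. The libraries of M KSR5 did not overlap with those of MEFs, and on the log2 ratio of maternal to paternal reads, which rests on 0 or 1 paternal read in a MEF library, the difference was -7.03 and past the threshold (adjusted p = 1.95e-07). The part of those cells in the share was not tested. The maternal reads of Grb10 stood at 62.3 RPM in MEFs and at group means of 0.311 to 3.28 RPM in pluripotent cells, and the paternal reads at 0.019 RPM in MEFs and 0.440 to 1.63 RPM.

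Ddc, whose locus is next to Grb10, moved the opposite way in level. MEFs held 1.59, 3.01 and 1.68 RPM (26 to 59 reads). F KSR2 held 17.6, 17.1 and 17.5 RPM, F KSR4 16.1, 3.37 and 36.5 RPM and M KSR3 28.5, 36.3 and 45.3 RPM. M KSR5 held 23.5, 24.9 and 25.4 RPM and TX 2i ESCs 23.9, 27.8 and 29.5 RPM. All 15 were above all MEF libraries, by 3.46 on the log2 scale (SE 0.42, limma adjusted p = 9.16e-07), 11.02-fold, and the second library of F KSR4 was the nearest to MEFs.

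MEFs had 0 to 3 allelic reads of Ddc, too few for a share, so that no allelic change from MEFs could be tested. In the pluripotent libraries with at least 5 allelic reads, its maternal share ran from 51.2 to 73.7%, the lowest and the highest both in TX 2i ESCs. All 14 such libraries were above equal use, but in most of them the 95% Wilson interval included it. The first TX 2i ESC library, at 51.2%, lay below its own chromosome 11 median of 52.5%. The M KSR3 libraries lay below theirs of 63.9 to 64.2%, and the other libraries above theirs. M KSR3 and M KSR5, at 58.1 to 62.0% and 59.3 to 63.2%, were close to each other. The median gene of chromosome 11 differed between them, and the neighbours Fignl1 and Cobl stood at 53.0 and 68.5% in M KSR3. In M KSR5 these neighbours stood at 56.8 and 66.6%.

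Gnas fell in level with little change of its share. MEFs held 1475, 1319 and 1471 RPM. F KSR2 held 147, 159 and 162 RPM, F KSR4 189, 326 and 275 RPM and M KSR3 175, 210 and 212 RPM. M KSR5 held 193, 172 and 259 RPM and TX 2i ESCs 199, 247 and 205 RPM. All 15 were below all MEF libraries, and the level fell by 2.80 on the log2 scale (SE 0.15, limma adjusted p = 1.70e-11), 6.97-fold. F KSR2 was the lowest group, and its libraries did not overlap with those of M KSR3, the next in order.

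The maternal share of Gnas was 50.0% ± 1.90 (SD, n = 3) in MEFs, over 1475 to 1912 allelic reads per library, and thus near equal use of the alleles. F KSR2 stood at 53.4% ± 3.43, F KSR4 at 54.8% ± 0.439, M KSR3 at 56.6% ± 6.0, M KSR5 at 61.4% ± 2.67 and TX 2i ESCs at 52.6% ± 4.23. M KSR5 differed from MEFs, by 11.4 points (SE 2.81, limma adjusted p = 0.0113), and the call was lost without the third MEF library (adjusted p = 0.0531). Without the third library of M KSR5 the difference was 12.9 points (adjusted p = 0.0115). The other groups did not pass the test, and the largest of their differences was 6.63 points in M KSR3 (95% interval 0.689 to 12.6, adjusted p = 0.112). MEFs held 49.4 maternal and 49.6 paternal RPM of Gnas, and the pluripotent groups 6.19 to 11.01 maternal and 5.38 to 9.06 paternal RPM. The maternal and paternal transcripts of the locus are summed in these values.

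By a limit of 10 to 90% for the mean share, 1 of 5 genes, Gnas, was read from both alleles in MEFs, and 6 of 6 were in each pluripotent group. In M KSR5 Grb10 was counted by a mean of 88.8%, with libraries at 95.9, 96.8 and 73.8%, and its difference from MEFs in share had not passed the limma test. Plagl1 in F KSR2 was counted by a mean of 89.7%, with libraries at 87.5, 91.1 and 90.5%. By a stricter limit of 20 to 80% F KSR2, F KSR4 and M KSR5 had 5 such genes each and M KSR3 and TX 2i ESCs 6, with Plagl1 outside it in the female lines and Grb10 in M KSR5. Both limits were set for description and carry no test.

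The genes next to the 6 loci were examined to see whether a change in share was shared by the region. Genes that start within 500 kb of a locus numbered 8 for Plagl1, 10 for Grb10, 9 for Ddc, 4 for Impact, 12 for Gnas and 12 for Zdbf2, and those with at least 5 allelic reads in every library numbered 6, 2, 2, 2, 6 and 5. Next to Plagl1, Sf3b5 (a splicing factor subunit, 82.2 kb away) stood at 44.9 to 62.5% in all 18 libraries. Ltv1 stood at 43.0 to 57.5% and Phactr2 at 52.9 to 81.25%. Of 7 genes tested there in F KSR2, 1 differed from MEFs (Fuca2), and 0 of 6 or 7 did in each other group. Next to Grb10 and Ddc, Fignl1, which acts in DNA repair, stood at 47.5 to 58.5% in all libraries and Cobl, an actin nucleator, at 55.2 to 72.8%, and neither differed from MEFs in any group. Next to Impact, Osbpl1a, an oxysterol-binding protein gene 217 kb away, stood at 28.2 to 41.7% in all libraries, MEFs included. It thus lay on the paternal side in the cells in which Impact was almost wholly paternal and in those in which it was not.

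Next to Gnas, 1 of 6 genes tested differed from MEFs in F KSR2, the peptidase gene Npepl1 (174 kb away), at 74.8% ± 3.94 against 59.9% ± 3.27, and 0 of 6 or 7 in the other groups. Next to Zdbf2, all 5 tested genes differed from MEFs in M KSR3, and 0 of 5 did in F KSR2, F KSR4 and M KSR5. Eef1b2, a translation elongation factor gene 96.4 kb away with at least 1601 allelic reads per library, stood at 46.3% ± 0.449 in MEFs and 64.8% ± 0.359 in M KSR3. In TX 2i ESCs 1 of 5 differed, Adam23. Thus 3 neighbours in all were called outside M KSR3, each in 1 group, and in M KSR3 chromosome 1 as a whole was shifted.

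**Figure D4:**
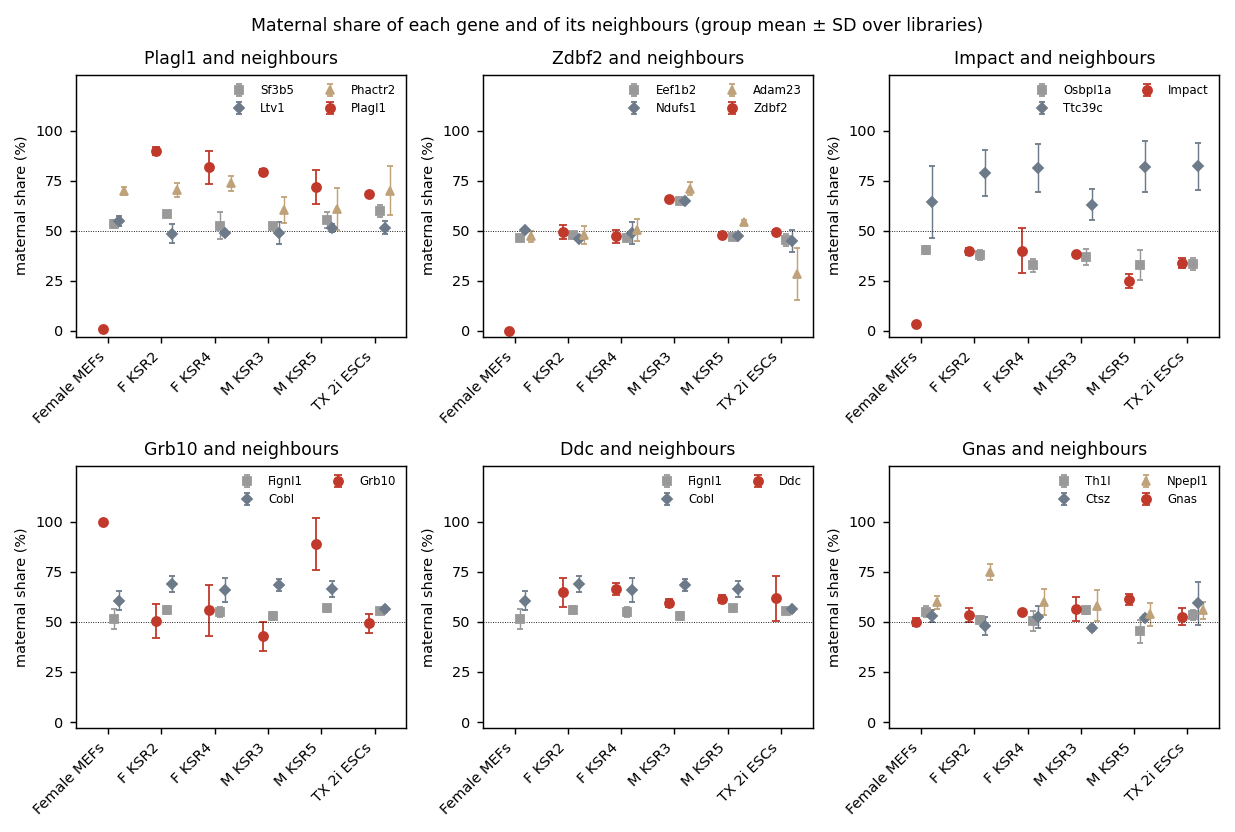
Maternal share in percent of each gene (red circles) and of up to 3 of its nearest neighbours with enough allelic reads (grey and tan symbols), as group mean ± SD over libraries, with 1 panel per gene. Group means of the neighbours of Plagl1 run from 48.5% (Ltv1) to 73.6% (Phactr2), and those of Grb10 and Ddc from 51.6 to 68.8%. The neighbours of Zdbf2 lie higher in M KSR3 than in MEFs, as Zdbf2 itself does.

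KSR-iPSCs were then set against TX 2i ESCs, which differ from them in medium, in origin and, for the male lines, in sex. In level 2 of the 6 genes differed, both lower in KSR-iPSCs, against 23.0% of all genes. Plagl1 differed by -4.13 on the log2 scale (SE 0.43, limma adjusted p = 4.99e-06), 17.4-fold lower, with all 12 KSR-iPSC libraries under the 3 of TX 2i ESCs. Grb10 differed by -0.89 (SE 0.26, adjusted p = 0.0207), a call lost without the first or the second TX 2i ESC library. Impact was 0.52 higher (95% interval 0.12 to 0.92, adjusted p = 0.0587), and passed with voom on recovered reads (adjusted p = 0.0396) and with values centred on the median gene (adjusted p = 0.0372). Ddc, Gnas and Zdbf2 differed by -0.36, -0.11 and 0.29 (adjusted p from 0.601 to 0.669).

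In share 1 of the 6 genes differed, against 20.3% of all genes. Plagl1 was 12.3 points more maternal in KSR-iPSCs (SE 2.99, limma adjusted p = 0.00672). That call was lost when the ratio of the alleles was taken on a log2 scale (adjusted p = 0.0534) and when the deposited values per allele were used (adjusted p = 0.0647). For the other 5 genes the adjusted p ran from 0.208 to 0.923, with 95% intervals of -0.770 to 21.3 points for Grb10 and -9.76 to 12.1 points for Ddc at the widest. Thus Grb10 and Ddc were measured too coarsely to say that the groups were alike.

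Lines of the same embryo were compared to see how far clones differ. Between F KSR2 and F KSR4 no gene differed in level by limma, against 1.14% of all genes, although Gnas and Zdbf2 had an unadjusted p under 0.05. F KSR2 minus F KSR4 was -0.72 for Gnas (95% interval -1.12 to -0.32, adjusted p = 0.0751), and 1.04 for Zdbf2 (0.03 to 2.06, adjusted p = 0.282). In share no gene differed either, against 8.90% of all genes, with 0 of 6 at an unadjusted p under 0.05. The share of Plagl1 differed by 8.03 points (95% interval -0.047 to 16.1, adjusted p = 0.291).

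The male lines differed in 1 gene in level and in 3 in share. Summed RPM of 10 early differentiation markers was 95.8 to 123 in M KSR3 and 27.5 to 72.8 in M KSR5, and their part in these differences was not tested. Grb10 was 6.13-fold lower in M KSR3 than in M KSR5 (-2.62 on the log2 scale, SE 0.33, limma adjusted p = 0.00051), and was the only gene of the 6 past the threshold in level, against 4.48% of all genes. The share of 3 genes differed, against 10.6% of all genes. Grb10 was less maternal in M KSR3 (-46.0 points, SE 6.69, adjusted p = 0.000313), and Zdbf2 18.1 points more maternal (SE 2.04, adjusted p = 2.88e-05). Without the third library of M KSR5 these differences were -53.5 and 17.8 points, and that of Grb10 in level -2.57 on the log2 scale. Relative to the median gene of chromosome 1, in the comparison added after seeing the data, the difference of Zdbf2 was 2.01 points (adjusted p = 0.915).

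Impact was 13.4 points more maternal in M KSR3 than in M KSR5 (SE 3.83, limma adjusted p = 0.0344). The call was lost without any 1 of the M KSR3 libraries, and without the first or the second library of M KSR5 (adjusted p from 0.0796 to 0.138), but not without the third (15.3 points, adjusted p = 0.0313). It was lost too with the deposited values per allele (9.99 points, adjusted p = 0.112), with libraries weighted by allelic reads (adjusted p = 0.0514) and relative to the median gene of its chromosome (adjusted p = 0.0803). Plagl1 was 1.79 higher in M KSR3 in level (95% interval 0.65 to 2.94, adjusted p = 0.0711). Without the third library of M KSR5, with 17.8 RPM beside 2.43 and 3.53 in the others, it was 2.66 higher and past the threshold. With 3 against 3 libraries an exact permutation test cannot go below 0.1, so that these calls rest on the limma fit of all genes.

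Between the 6 female and the 6 male KSR-iPSC libraries no gene of the 6 differed in level, against 2.87% of all genes, or in share, against 3.72%. At an unadjusted p under 0.05 there were 2 in level, Ddc and Impact, and 2 in share, Plagl1 and Zdbf2. Ddc was lower in the female libraries (-1.01 on the log2 scale, 95% interval -1.87 to -0.15, limma adjusted p = 0.191) and Impact 0.47 higher (0.07 to 0.87, adjusted p = 0.193). Plagl1 was 10.0 points more maternal in the female libraries (SE 3.90, adjusted p = 0.235) and Impact 8.38 points (adjusted p = 0.316). Zdbf2 was less maternal (-8.75 points, adjusted p = 0.297), as was Gnas (-4.90 points, adjusted p = 0.311). Relative to the median gene of chromosome 1, which was shifted in M KSR3, the difference of Zdbf2 was -0.978 points (adjusted p = 0.889). An exact permutation test over libraries gave p = 0.0390 for the share of Plagl1. It gave p = 0.0325 for the level of Ddc and 0.0346 for that of Impact. Both this test and the limma fit take the libraries of a line as independent, whereas each sex has 2 lines. Neither therefore takes the line as its unit or measures the spread between lines on its own.

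These female and male values hold lines that differ from each other. For Grb10, whose difference was -12.7 points (95% interval -36.0 to 10.6, adjusted p = 0.622), M KSR3 and M KSR5 lay on either side of both female lines. A fit of all 18 libraries, with its smaller error, put the shares of Plagl1, Impact and Zdbf2 past the threshold, and a fit with a mean per line, added after seeing the data, that of Zdbf2.

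The spread among the 12 KSR-iPSC libraries differed by gene. The highest library held 13.4 times the lowest RPM for Ddc, 12.1 times for Plagl1, 8.94 times for Zdbf2 and 8.77 times for Grb10, but 2.60 times for Impact and 2.21 times for Gnas. Impact and Gnas were thus the even ones in level.

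The genes whose levels followed each member most closely over the 18 libraries, among 14631 others, were found by Pearson's r, as a description. For Plagl1 they were Me1, malic enzyme 1 (r = 0.917), and 2510009E07Rik (0.914), and within the 15 pluripotent libraries r was still 0.8995 and 0.896. For Grb10 they were the NF-kappa-B subunit Nfkb2 (0.966) and 5930434B04Rik (0.954). For Ddc they were the mitochondrial ribosomal protein genes Mrpl39 (0.973) and Mrpl15 (0.969). For Impact they were Nlrp4g (0.805) and the adhesion molecule L1cam (0.742), the lowest of the 6. For Gnas they were the chloride channel gene Clic1 (0.979) and the prostaglandin D synthase Hpgds (0.979), and for Zdbf2 Rfx7, a transcription factor (0.977), and Nol6, a nucleolar protein (0.968). Within the pluripotent libraries r was lower for Hpgds (0.680) but higher for Nlrp4g (0.872) and L1cam (0.799).

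Paralogues of 2 of the genes were measured. Plag1 and Plagl2, which share the zinc fingers of Plagl1, held 6.04 and 29.0 RPM in MEFs and group means of 3.01 to 4.02 and 12.6 to 21.8 RPM in pluripotent cells. Grb14, an adaptor of the family of Grb10, held 22.9 RPM in MEFs and 1.87 to 2.47 RPM in pluripotent cells, a fall of the same direction as that of Grb10 (-3.39 on the log2 scale, SE 0.31, limma adjusted p = 2.69e-08). Grb7, the third adaptor, had 0 or 1 read per MEF library and group means of 9.40 to 38.6 RPM in pluripotent cells (adjusted p = 2.25e-13). The adaptor that rose was thus Grb7, and those that fell Grb10 and Grb14.

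The pathways in which the genes act were then described by fixed lists without the 6 genes themselves. In insulin and IGF receptor signalling 4 of 24 genes were higher and 11 lower in pluripotent cells than in MEFs, with a median of -0.28 on the log2 scale against 0.21 for all genes. Of all genes 74.6% were called in this comparison, 6167 of 14632 higher and 4750 lower, against which the counts of each list are to be read. Irs1, the insulin receptor substrate, fell from 90.9 RPM in MEFs to group means of 0.766 to 2.12 RPM (-6.39, adjusted p = 2.60e-10), and Mtor, the growth kinase, rose by 0.61 (adjusted p = 0.000851). Between the sexes Mtor was the only gene of this list past the threshold, against 2.87% of all genes, and lower in the female libraries (-0.77, limma adjusted p = 0.0171). That fit takes the 6 libraries of a sex as independent, whereas each sex has 2 lines of 1 embryo. With means of 2 lines against 2 the calls over all genes fell from 390 to 4, and Mtor was not looked at there.

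In the list of the GCN2 and ATF4 response, in which Impact acts, 2 of 15 were higher and 6 lower, with a median of -0.11. Eif2s1, the translation factor that GCN2 phosphorylates, rose by 0.88 (limma adjusted p = 0.000141) and Asns, asparagine synthetase, by 0.82 (adjusted p = 0.000622). The stress factor Ddit3 fell by 3.13 (adjusted p = 0.000175) and the cystine transporter Slc7a11 fell by 5.33 (adjusted p = 6.93e-06). For Eif2ak4, which encodes GCN2, the difference was -0.09 (adjusted p = 0.660). Between the female lines Trib3 and Chac1, which ATF4 induces, were higher in F KSR2 by 1.57 and 2.25 (adjusted p = 0.0169 and 0.0267), without a call for Impact.

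In Gs and cAMP signalling, the pathway of Gnas, 15 of 23 genes were lower and 2 higher, beside the 74.6% of all genes called, with a median of -1.13. The phosphodiesterase gene Pde4b fell by 5.58 (limma adjusted p = 1.00e-05) and the adenylyl cyclase gene Adcy4 fell by 5.42 (adjusted p = 7.07e-07). Gnal, a close relative of Gs alpha, was 1.62 higher (adjusted p = 0.00240), from 0.682 RPM in MEFs to group means of 1.18 to 5.17 RPM, and Adcy9 1.20 higher (adjusted p = 0.0476). In monoamine synthesis and breakdown, the pathway of Ddc, 6 of 12 genes had enough reads, of which 2 were higher and 3 lower (median 0.24). Qdpr, which recycles a cofactor of monoamine synthesis, was 1.33 higher (adjusted p = 1.58e-06).

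Of 11 genes of the PLAG family and its targets tested, 10 were lower in pluripotent cells and 0 higher by limma, with a median of -2.88. Igf2, the fetal growth factor, fell by 9.10 on the log2 scale (adjusted p = 1.73e-12) and H19, the RNA next to it, fell by 6.04 (adjusted p = 3.62e-09). Both are abundant in fibroblasts, whose markers move the same way in this comparison, and the part of cell type in these counts was not tested. Against TX 2i ESCs, where Plagl1 was the lower in KSR-iPSCs, 3 of the 11 were higher in KSR-iPSCs and 1 lower. Among them Cdkn1c, a cell cycle inhibitor, was 2.69 higher in KSR-iPSCs (adjusted p = 3.67e-05).

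Fewer genes of these lists were called in the other comparisons, as was the case over all genes (23.0% for KSR-iPSCs against TX 2i ESCs, 4.48% between the male and 1.14% between the female lines). Between KSR-iPSCs and TX 2i ESCs 3 of 24 genes of insulin and IGF receptor signalling were higher and 3 lower, and of the GCN2 and ATF4 list 0 of 15 were higher and 3 lower. Of the Gs and cAMP list 1 of 23 was higher and 6 lower, and of the monoamine list 1 of 6 was higher and 2 lower. Between M KSR3 and M KSR5, where Grb10 differed, no gene of the insulin and IGF list passed the threshold, and of the PLAG list Cdkn1c and Igf2 were lower in M KSR3 (-2.20 and -2.52 on the log2 scale, limma adjusted p = 0.00979 and 0.0120). Of the Gs and cAMP list Prkar1a was 0.97 higher in M KSR3, and Adcy5 and Pde4b were lower (adjusted p from 0.00160 to 0.0358). Between F KSR2 and F KSR4 the subunit Gnb1 was lower in F KSR2 (-1.15, adjusted p = 0.000375), at 179 against 396 RPM, and so was Cdkn1c (-1.91, adjusted p = 0.0396). The part of chromosome shifts, such as those of chromosomes 1 and 11 in M KSR3, in these differences between lines was not tested. Neither was that of a gain or loss of part of a chromosome in 1 line, as for Gnb1 in F KSR2. Median shares were described only for the chromosomes of the 6 genes.

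**Figure D5:**
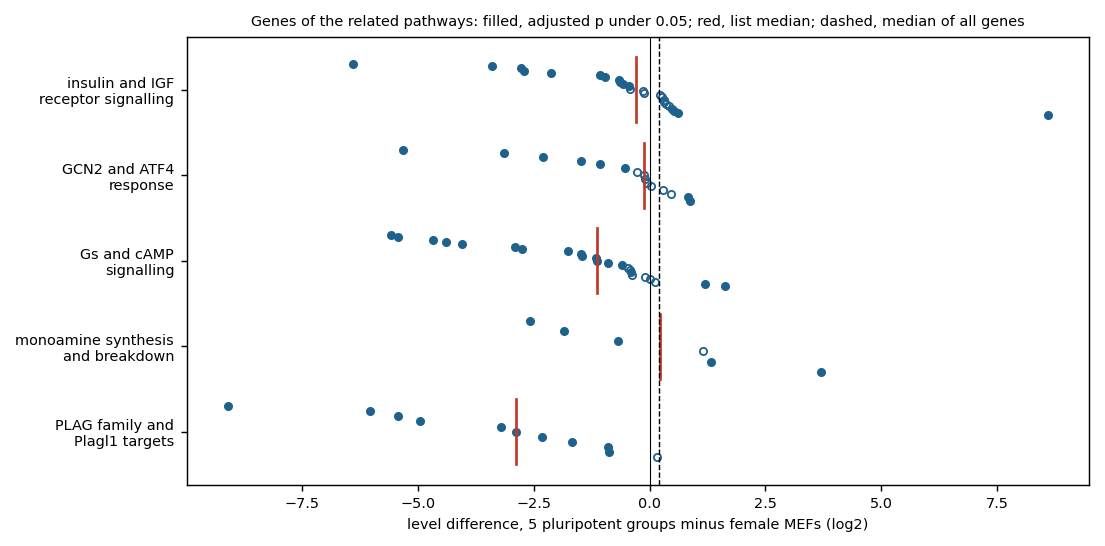
Difference in level between the mean of the 5 pluripotent groups and MEFs, in log2 units on the horizontal axis, for each gene of the 5 pathway lists. Filled points passed an adjusted p of 0.05, open points did not, red lines mark the median of a list and the dashed line the median of all genes, 0.21. The list of the PLAG family and its targets lies lowest, with a median of -2.88, and that of Gs and cAMP signalling has 15 of 23 genes lower.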

How the data were processed

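RNA-seq of 18 libraries was used, in 6 groups of 3 biological replicates. Trim Galore 0.6.1 was used by the authors to trim the stranded reads and HISAT2 2.1.0 to map them to GRCm38, after which they split them by SNPs between BL6 and CAST, and counted them on genes with SeqMonk. The deposited values are log2 RPM of all reads and of the reads of each allele, with a gene without reads held at 0.9 read. A supplement names the unit RPKM, but steps between low values did not vary with gene length. Another 82 samples of the series, for DNA methylation, were not analysed here.

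Rows were matched by their gene column and position, since for Zdbf2 and Gnas the identifier column names a feature of the opposite strand, and the values were taken as those of the named gene. Whole reads were recovered from the step of 1 read (tolerance 0.05 read). Levels were compared with limma 3.58.1 in R 4.3.3 on the deposited log2 values, for genes above 0 in at least 3 libraries, with 1 mean per group. Maternal shares came from recovered reads, with at least 5 allelic reads in a library and at least 2 values in a group, so that a share below this is missing in the fit, as for Ddc in 1 library of F KSR4. Female and male lines were compared in the 12 KSR-iPSC libraries alone. Fits were checked on simulated data. Python 3.11.15 with scipy 1.17.1 served for exact permutation tests and Wilson intervals.

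The 6 genes and all lists were chosen with earlier results of these data known, and support nothing as independent evidence. Besides the 6 genes, the text names their paralogues, up to 3 neighbours each, the 2 genes most alike in level and up to 4 genes of each list with the largest changes. Fuller names outside this rule (Eif2ak4, Trib3, Chac1, Gnb1, Cdkn1c, Prkar1a and Adcy5) were chosen after their values were seen. Replicates came from 1 line or embryo, so p-values measure the spread between such libraries. The same replicate number did not mark a shared sample: same-numbered libraries deviated together with correlations of -0.197 to 0.382 (median 0.039).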

Additional observations from a re-analysis of the deposited data

Results flagged for a closer look

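Among the 6 female KSR-iPSC libraries, 3 values stood far from the others by Dixon's test, of 24 groups of values checked, where chance gives about 1 in 20. The maternal share of Plagl1 was 72.1% in the third library of F KSR4, below 86.1 to 91.1% in the other 5. The level of Ddc was 1.75 log2 RPM in the second library of F KSR4, below 4.01 to 5.19 in the others. The maternal share of Gnas was 49.5% in the second library of F KSR2, below 54.3 to 55.7% in the others.

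A further 7 results differed between groups by the limma test of the difference itself. Between KSR-iPSCs and TX 2i ESCs these were the levels of Plagl1 (-4.13 on the log2 scale) and Grb10 (-0.89) and the share of Plagl1 (12.3 points). Between M KSR3 and M KSR5 they were the level of Grb10 (-2.62) and the shares of Grb10 (-46.0 points), Impact (13.4 points) and Zdbf2 (18.1 points), the last beside a shift of chromosome 1 in M KSR3 whose part was tested only by the comparison relative to its median gene.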

How the results depend on the processing

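Of 79 results for the 6 genes, 32 passed the threshold, and 27 of these did so in every alternative. Of the 47 that did not, 38 never did. The changes of level from MEFs were past the threshold in all alternatives. Alternatives marked as added (shares relative to the median gene of the chromosome, M KSR5 replicate 3 and F KSR4 replicate 2 left out together, and a mean per line) were chosen after seeing the data. No cause was tested unless named.

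The count of genes past the threshold for level went from 2 to 1 for KSR-iPSCs against TX 2i ESCs when the first or the second TX 2i ESC library was left out, and ranged from 1 to 3 with 1 library left out, since Impact passed without the third library of F KSR4 or the first of M KSR5, as it did with voom, with centring and with both libraries out. It went from 0 to 1 for F KSR2 against F KSR4 with values centred on the median gene and with replicate number as a block, for Gnas, and ranged from 0 to 2 with 1 library left out, 2 without the first library of F KSR4. For M KSR3 against M KSR5 it went from 1 to 2 with both libraries out (range 1 to 2 with 1 out). For shares it went from 1 to 0 for KSR-iPSCs against TX 2i ESCs on the log2 ratio and with the deposited values per allele, and from 3 to 1 for M KSR3 against M KSR5 relative to the chromosome. With 1 library left out the latter ranged from 2 to 3. It went from 0 to 3 for female against male lines in the fit of all 18 libraries and to 1, Zdbf2, with a mean per line, although relative to the chromosome its difference was -0.978 points. The replicate block changed no other call.

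Values that changed sign had not passed the threshold. With both libraries out these were the levels of Ddc (-0.48, F KSR2 minus F KSR4) and Gnas (0.12, M KSR3 minus M KSR5) and the shares of Impact (6.14 points, F KSR2 minus F KSR4, and -0.409, KSR-iPSCs minus TX 2i ESCs). With centring they were the levels of Impact (-0.055, F KSR2 minus F KSR4) and Gnas (0.078, female minus male), and with voom on recovered reads those of Grb10 (-0.29) and Gnas (0.025) between the sexes. Against TX 2i ESCs the deposited values per allele gave -3.72 points for Ddc, -2.58 for Impact, -1.02 for Gnas and -1.82 for Zdbf2, and the chromosome reference -2.75 for Ddc and -1.08 for Zdbf2. With weights Zdbf2 was -0.754 (F KSR2 minus F KSR4).

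With 1 library left out, F KSR2 minus F KSR4 ranged in level from -0.87 to 0.076 for Plagl1, -0.48 to 1.24 for Ddc and -0.077 to 0.24 for Impact, and in share from -4.05 to 2.31 points for Ddc, -4.50 to 6.14 for Impact, -2.54 to 0.573 for Gnas and -0.0177 to 3.86 for Zdbf2. Gnas ranged from -0.17 to 0.12 between the male lines and -0.15 to 0.076 between the sexes, Grb10 from -0.16 to 0.46 between the sexes, and the share of Ddc from -4.19 to 7.08 points against TX 2i ESCs.

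Over all genes, female against male calls in level numbered 390, and 138 with line as a random effect, 4 with means of 2 lines against 2, 232 without a filter and 1523 in the fit of all 18 libraries. In share they numbered 398, 1652 in that fit and 67 relative to the chromosome. Those of M KSR3 against M KSR5 in level ranged from 145 to 1182 and those of F KSR2 against F KSR4 from 66 to 1660. Centring moved the share of higher calls from 50.3 to 29.8% between the female lines and from 55.4 to 70.4% between the sexes, and the median gene from 0.21 to 0.33 for pluripotent cells minus MEFs. Shares of Grb10 rest on 8 to 73 allelic reads in a pluripotent library, which limits what they can show.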

Other observations

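Transcripts on the opposite strand of the loci, which strand-specific counting is meant to keep apart, were looked at as well. Of these, 2, Nespas and 1700042O10Rik, were read mostly from the maternal allele in pluripotent cells. Nespas, the antisense RNA of the Nesp end of Gnas, which is known as paternal, had 3 to 10 reads in a MEF library and 22 to 148 in a pluripotent one. Over the 15 pluripotent libraries 27 of its 31 allelic reads were maternal, 87.1% (95% Wilson interval 71.2 to 94.9, counting error only), and maternal reads were the more numerous in 10 of the 10 libraries with any. Within the Ddc locus 1700042O10Rik had 0 or 1 read in MEFs and 3 to 26 in pluripotent libraries, of which 78 of 80 allelic reads were maternal (97.5%, 91.3 to 99.3), the more numerous in 14 of 14 libraries.

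Gm20721, opposite the 3′ part of Gnas, had 360 to 426 reads in MEFs, 13 maternal and 32 paternal (28.9%, 17.7 to 43.4), and 21 to 144 reads in pluripotent libraries, 11 maternal and 13 paternal. These transcripts were chosen after their values were seen and were not tested between groups. A difference in how well BL6 and CAST reads map was not tested, and neither was a carry-over of reads from the opposite strand.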
